A study of Mus musculus with 62 samples.

Results

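The 31 genes described here encode proteins of meiotic recombination and chromosome synapsis, and they were chosen by name. The rule used no measured value, but earlier results of these data were known when the genes were chosen. Of the 23845 genes in the expression table, 30 were these members. Rnf212 was not analysed here, and Mei4 stayed below the filter of a mean of 1 TPM, which left 29 members tested in testis. Values are TPM, a share of a library's transcripts that is scaled by transcript length, so that levels of different genes can be set side by side. The study sequenced polyadenylated RNA of testis, caput epididymis and cauda epididymis in 62 libraries, of which 15 were from testis. Each library was 1 animal, an adult male of 8 to 14 weeks. Germ-free (GF) mice, which carry no microbes, were bred in sterile isolators and gave 4 testes. Specific pathogen free (SPF) mice, derived from animals of a commercial breeder and housed with an ordinary microbiota, gave 3. Recolonized GF mice descended from GF animals of another laboratory that had been moved to conventional housing and bred there for generations, and gave 3. The SPF animals set against them, labelled set 2, gave 5. For the epididymis, Rag2 KO mice, which lack T and B cells, and F1 offspring of GF and SPF parents were set against SPF as well. GF was compared with SPF and recolonized GF with SPF set 2, and no library was shared between these comparisons.

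Meiosis begins with programmed DNA breaks, made by SPO11 at sites that the histone methyltransferase PRDM9 marks. The broken ends are resected and coated by the recombinase DMC1, which searches for the homologous chromosome, while cohesin and axis proteins (REC8, RAD21L, SMC1B, STAG3, SYCP2, SYCP3, HORMAD1, HORMAD2) organise each chromosome and SYCP1 with the central element proteins zips the homologues together. A subset of the repair intermediates, stabilised by MSH4 and MSH5, matures into crossovers, for which MLH3 is needed. In mouse testis these events occupy the long prophase of primary spermatocytes, and loss of most of these genes halts spermatogenesis there.

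Promoters are shown first, since sequence is a feature that the members could share. RefSeq promoters of GRCm38.p6, each spanning 250 bases before to 50 bases after a listed start of a gene, were found for 27 of the 30 members. With 1 promoter a gene, the first listed, 4 motifs that are tied to germ-line genes were searched on both strands. The E2F-type motif TTCCCGC lay in 8 of the 27 (29.6%), against 4.66% of 27025 promoters in all. CACGTG, the E-box that MGA and MAX bind, lay in 5 (18.5%, against 7.24%), and CNCCTCAG, given for STRA8, also in 5 (18.5%, against 7.97%). CAGTTG, a core of MYB sites, lay in 1 (3.70%, against 13.6%). At least 1 motif was present in 12 of the 27, a share that was not counted over all promoters, so nothing is read from it. The motifs do not overlap one another in the windows below. These are matches of letters, chosen among several spellings after the promoters had been looked at, and they show neither binding nor a cause. The 6 promoters printed, each from 150 bases before to 20 after the start, all hold the E2F-type motif, and capitals mark the bases of any of the 4 motifs.
Spata22 (chr11:73329591-73329760, + strand): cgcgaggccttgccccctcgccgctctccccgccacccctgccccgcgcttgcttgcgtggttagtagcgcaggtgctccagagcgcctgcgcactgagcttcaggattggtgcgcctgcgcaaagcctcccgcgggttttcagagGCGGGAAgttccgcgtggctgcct
Sycp3 (chr10:88459437-88459606, + strand): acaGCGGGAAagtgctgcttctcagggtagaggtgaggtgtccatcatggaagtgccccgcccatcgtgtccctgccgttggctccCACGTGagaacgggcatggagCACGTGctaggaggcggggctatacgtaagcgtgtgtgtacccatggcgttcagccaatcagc
Hormad1 (chr3:95559527-95559696, + strand): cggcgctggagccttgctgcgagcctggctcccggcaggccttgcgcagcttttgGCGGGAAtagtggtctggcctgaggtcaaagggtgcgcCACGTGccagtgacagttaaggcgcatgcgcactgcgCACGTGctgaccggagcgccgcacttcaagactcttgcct
Smc1b (chr15:85131938-85132107, - strand): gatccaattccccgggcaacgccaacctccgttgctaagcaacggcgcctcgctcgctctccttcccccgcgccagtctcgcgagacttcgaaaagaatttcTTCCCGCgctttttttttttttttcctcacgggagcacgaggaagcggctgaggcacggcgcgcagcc
Stag3 (chr5:138280359-138280528, + strand): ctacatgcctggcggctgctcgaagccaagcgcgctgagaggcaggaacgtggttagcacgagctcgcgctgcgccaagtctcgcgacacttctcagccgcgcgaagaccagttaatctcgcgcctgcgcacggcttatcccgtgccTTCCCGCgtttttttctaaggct
Tex12 (chr9:50561249-50561418, - strand): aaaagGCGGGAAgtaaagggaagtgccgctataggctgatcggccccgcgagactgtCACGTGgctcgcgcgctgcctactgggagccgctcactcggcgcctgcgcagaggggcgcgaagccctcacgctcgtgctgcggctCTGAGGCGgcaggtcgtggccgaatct
In Spata22 and Stag3 the E2F-type motif ran across the listed start, and in Sycp3 and Hormad1 it stood with 2 copies of the E-box. The listed starts of Spata22 and Stag3 lie inside their loci, which begin upstream at chr11:73326560 and chr5:138272514. Their windows are thus not at the first base of the gene. Tex12 held 3 of the 4 motifs.

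All testis libraries carried the transcripts of the labelled tissue. The summed level of 20 genes of spermatids and sperm ran from 88565 to 94766 TPM in GF and from 72171 to 79623 in SPF, and from 103790 to 108910 in recolonized GF and 90829 to 104440 in SPF set 2. The 12 genes of epididymal epithelium summed to at most 18.5 TPM in any testis, and Lcn5 and Defb39 were at 0 in all 15. TPM keep no depth. Genes above 0 TPM numbered 16026 to 18167 in GF and 17850 to 18062 in SPF, and 18314 to 18704 in recolonized GF and 18543 to 18822 in SPF set 2. The lowest was GF replicate 4, with the other GF testes at 17580 or more, and results are given without it as well. Over all tested genes the median log2 fold change was -0.10 for GF against SPF and -0.16 for recolonized GF against SPF set 2, so the members are read against those values.

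The members spanned 3 orders of magnitude in testis. In SPF testes 7 had a mean of at least 100 TPM, 7 lay between 20 and 100, 13 between 5 and 20, and 3 below 5. Syce2, a central element protein of the synaptonemal complex, had the highest mean in SPF, with 276, 269, 285 and 307 TPM in GF and 301, 270.0 and 282 TPM in SPF. Stag3, a cohesin subunit restricted to meiosis, had 237, 256, 281 and 273 TPM in GF and 273, 279 and 286 TPM in SPF. Ccna1, the germ-line cyclin A that spermatocytes need to enter the meiotic divisions, had 277, 315, 326 and 347 TPM in GF and 247, 295 and 263 TPM in SPF. In GF its mean was the highest, at 316 TPM against 284 TPM for Syce2, with overlapping ranges. The ranges of these 3 genes overlapped in SPF, so their order is not settled. Syce3 overlapped Ccna1, and the next steps down, to Syce1, then to Rec8 with Psmc3ip, then to Sycp3, were gaps with no overlap. At the low end stood Rad21l, Prdm9 and Mei4. Mei4, a factor of break formation in mouse, was listed at 0.11, 0, 0.07 and 0 TPM in GF and 0.15, 0.16 and 0.07 TPM in SPF, with 0.37, 0.11 and 0.13 TPM in recolonized GF and 0.39, 0.1, 0.43, 0.30 and 0.28 TPM in SPF set 2. Of the 29 neighbouring pairs in the SPF order, 19 overlapped in range and 10 did not.

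The SPF testes of the first set and of set 2 stood at different levels for several members, and each comparison below uses its own controls. Stag3 averaged 279.5 ± 6.51 TPM in SPF and 187 ± 9.42 TPM in SPF set 2 (SD, n = 3 and 5), Rec8 151 ± 7.25 TPM in SPF and 112 ± 5.17 TPM in SPF set 2, Syce1 201 ± 10.8 TPM in SPF and 290.5 ± 21.7 TPM in SPF set 2, and Sycp3 68.9 ± 8.30 TPM in SPF and 117 ± 21.2 TPM in SPF set 2. These are levels given side by side, without a test.

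In GF testes most members lay below their SPF level, by amounts that no single gene carried past the test. None of the 29 that passed the filter was called higher or lower (called genes needed a change of 1.5-fold or more and an adjusted p no higher than 0.05 from limma, a linear model fitted to log2(TPM + 1) across all genes), where 0.0423% of the 14177 genes tested were called. The lowest adjusted p of a member was 0.334. A negative log2 fold change was found for 27 of the 29, where 72.7% of all genes had one, and the members' median was -0.34 against -0.10. At an unadjusted p under 0.05 there were 11 members, all lower, against 11.8% of all genes that were lower at that level and 1.7% that were higher. GF and SPF libraries did not overlap for 7 members, all lower in GF, where 11.4% of all genes were lower without overlap. Centring each library on its median of tested genes, which brings the median of all genes to 0.03, gave a members' median of -0.20 with 20 below 0. Without GF replicate 4 the median was -0.25 and 27 were below 0. In bulk tissue, fewer cells of a type and less RNA per cell cannot be told apart.

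**Figure D1:**
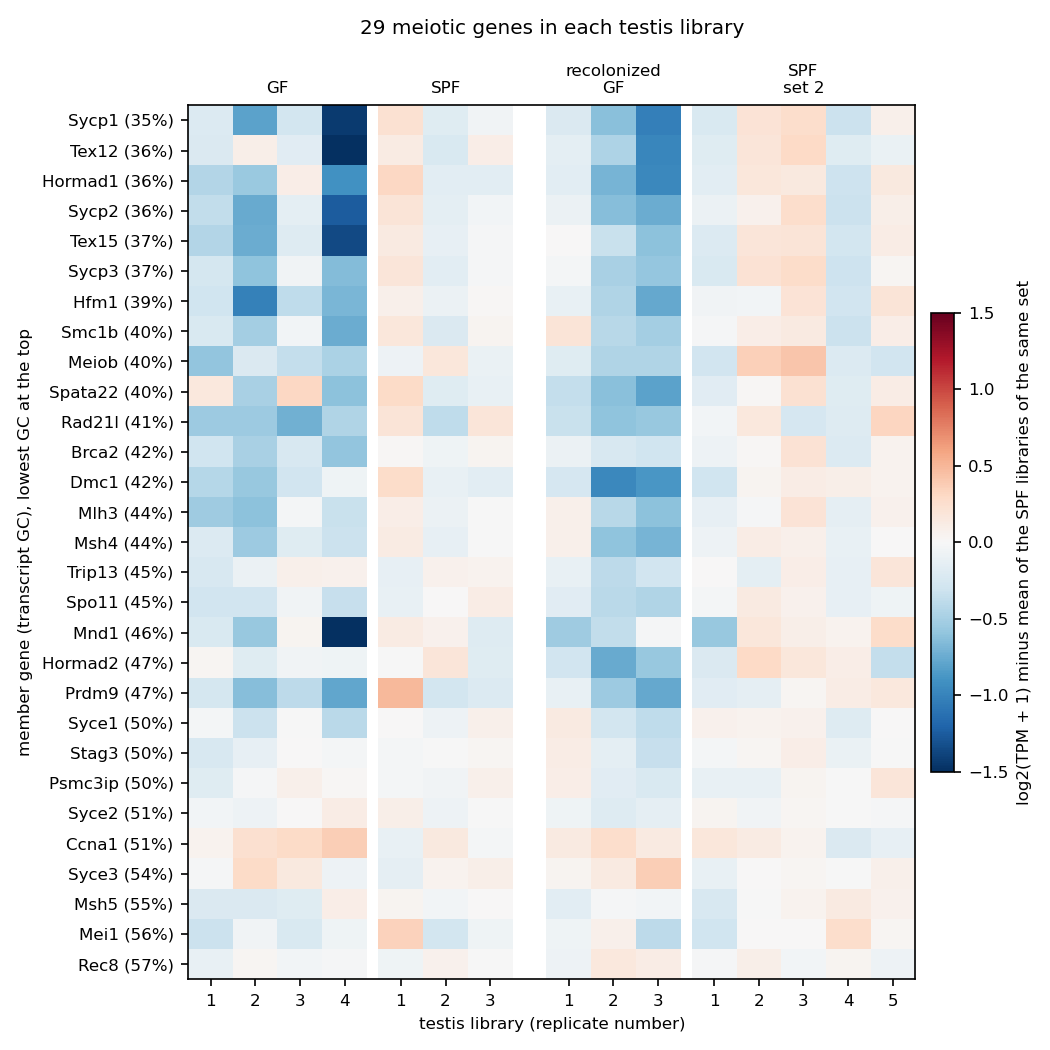
Each of the 29 tested members (rows, ordered by the GC content of the transcript in percent) in each testis library (columns, by replicate number), as log2(TPM + 1) minus the mean of the SPF libraries of the same set. Values past 1.5 are drawn at the end of the colour scale. GF replicates 2 and 4 and recolonized GF replicates 2 and 3 are blue over most rows of low GC, and the 9 rows of 48% GC or more are paler.

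The axis and cohesin genes, which organise the chromosomes for pairing, were all below 0 in GF, with a median of -0.38 over 8 members. Rad21l, a kleisin subunit of meiotic cohesin, had 1.46, 1.46, 1.17 and 1.62 TPM in GF and 3.10, 1.74 and 3.07 TPM in SPF. All 4 GF values lay under the 3 SPF values (log2 fold change -0.56 ± 0.16, adjusted p = 0.334, where ± gives the standard error, here and below). Rad21l is low enough that the added 1 TPM shrinks its change on this scale. The range of the list ran from -0.63 for Sycp2, a component of the axis core, to -0.04 for Rec8, the other meiotic kleisin. Rec8 stood at 139, 153, 146 and 149 TPM in GF and 144, 158 and 150.3 TPM in SPF, overlapping throughout (log2 fold change -0.04 ± 0.08, adjusted p = 0.857). Stag3, whose values are given above, had a 95% interval of -0.31 to 0.11.

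Among the genes of the synaptonemal complex centre, the lowest log2 fold change was that of Sycp1 and only Syce3 was above 0, with a median of -0.19 over 5 members. Sycp1, the transverse filament that spans the gap between homologues, had 22.8, 14.7, 21.6 and 9.16 TPM in GF and 31.2, 23.1 and 25.5 TPM in SPF (log2 fold change -0.68 ± 0.29, adjusted p = 0.367). No GF value reached the lowest SPF value, and the lowest by far was that of GF replicate 4. Syce3, which loads the central element, had 236, 293, 266 and 228 TPM in GF and 218, 247 and 255 TPM in SPF (log2 fold change 0.09 ± 0.12, adjusted p = 0.745). Its libraries overlapped, and so did those of Syce2, with a 95% interval of -0.20 to 0.20.

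Of the break formation genes, Spo11, the catalytic protein of the break, had 33.4, 33.3, 39.7 and 32.2 TPM in GF and 37.8, 41.3 and 44.3 TPM in SPF (log2 fold change -0.24 ± 0.11, adjusted p = 0.371). Only GF replicate 3 reached into the SPF range. Prdm9 had 1.82, 1.18, 1.59 and 0.98 TPM in GF and 3.73, 1.81 and 1.93 TPM in SPF, where SPF replicate 1 stood above the other 2 (log2 fold change -0.52 ± 0.21, adjusted p = 0.355). Mei1, which mouse spermatocytes need for making breaks, had 4.65, 5.78, 5.03 and 5.72 TPM in GF and 7.93, 4.81 and 5.74 TPM in SPF, with overlap (log2 fold change -0.17 ± 0.15, adjusted p = 0.62).

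The strand invasion and repair genes included Brca2, the member with the lowest p. Brca2, which acts in the repair of DNA breaks, had 5.93, 5.08, 6.21 and 4.68 TPM in GF and 7.68, 7.17 and 7.80 TPM in SPF (log2 fold change -0.41 ± 0.11, adjusted p = 0.334, unadjusted p = 0.00538). The GF range ended below the SPF range. Meiob, a meiotic single-strand binding protein, had 6.70, 8.98, 8.06 and 7.33 TPM in GF and 10.0, 12.0 and 9.82 TPM in SPF (log2 fold change -0.41 ± 0.12, adjusted p = 0.334). Tex15, which mouse spermatocytes need for repairing breaks, had 8.86, 7.02, 10.7 and 4.24 TPM in GF and 13.7, 11.3 and 12.2 TPM in SPF (log2 fold change -0.68 ± 0.25, adjusted p = 0.342). Both were without overlap, and Brca2 shares its locus with Gm42529 on the opposite strand. Psmc3ip (HOP2), which with its partner MND1 helps DMC1 to invade the homologue, stood at 127, 142, 153 and 146 TPM in GF and 141, 139.7 and 153 TPM in SPF (log2 fold change -0.03 ± 0.09, adjusted p = 0.906), with overlap. All 7 genes of this group were below 0, with a median of -0.41.

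Of the crossover genes, Hfm1, a helicase that crossover formation needs, had 9.27, 5.26, 8.74 and 6.88 TPM in GF and 12.4, 10.9 and 11.8 TPM in SPF (log2 fold change -0.60 ± 0.17, adjusted p = 0.334). These did not overlap, and GF replicate 2 was the lowest. Msh5, which with MSH4 clamps recombination intermediates, had 10.4, 10.4, 10.7 and 13.2 TPM in GF and 12.7, 11.9 and 12.3 TPM in SPF (log2 fold change -0.13 ± 0.10, adjusted p = 0.564), GF replicate 4 being above all SPF values and the other GF values below them. The group's median was -0.34 over 4 genes. In the last group, Trip13, the ATPase that strips HORMAD proteins from synapsed axes, had 5.37, 6.12, 6.93 and 6.91 TPM in GF and 5.93, 6.90 and 6.84 TPM in SPF (log2 fold change -0.05 ± 0.11, adjusted p = 0.86), and Ccna1 had the highest log2 fold change of the 29 members (log2 fold change 0.24 ± 0.11, adjusted p = 0.385).

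In recolonized GF testes the members were again mostly below their controls, and 1 of them, Spata22, was called lower. This is 1 of 29, where 1.28% of the 14264 genes tested were called, 165 of them lower (1.16%) and 18 higher. A negative log2 fold change was found for 26 of 29, against 76.7% of all genes, and the members' median was -0.32 against -0.16. At an unadjusted p under 0.05 there were 13 members, all lower, against 27.9% of all genes that were lower at that level. For 4 members, all lower, the groups did not overlap, against 14.9% of all genes. At an adjusted p of at most 0.1, 9 members were lower, against 15.9% of all genes. With libraries centred on their medians, which moves the median of all genes to 0.04, the members' median was -0.12, 20 were below 0 and none was called. Without recolonized GF replicate 1, whose members lay near the control level, 10 members were called lower, and 760 genes in all were lower. Leaving out any other library left 0 or 2 called.

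**Figure D2:**
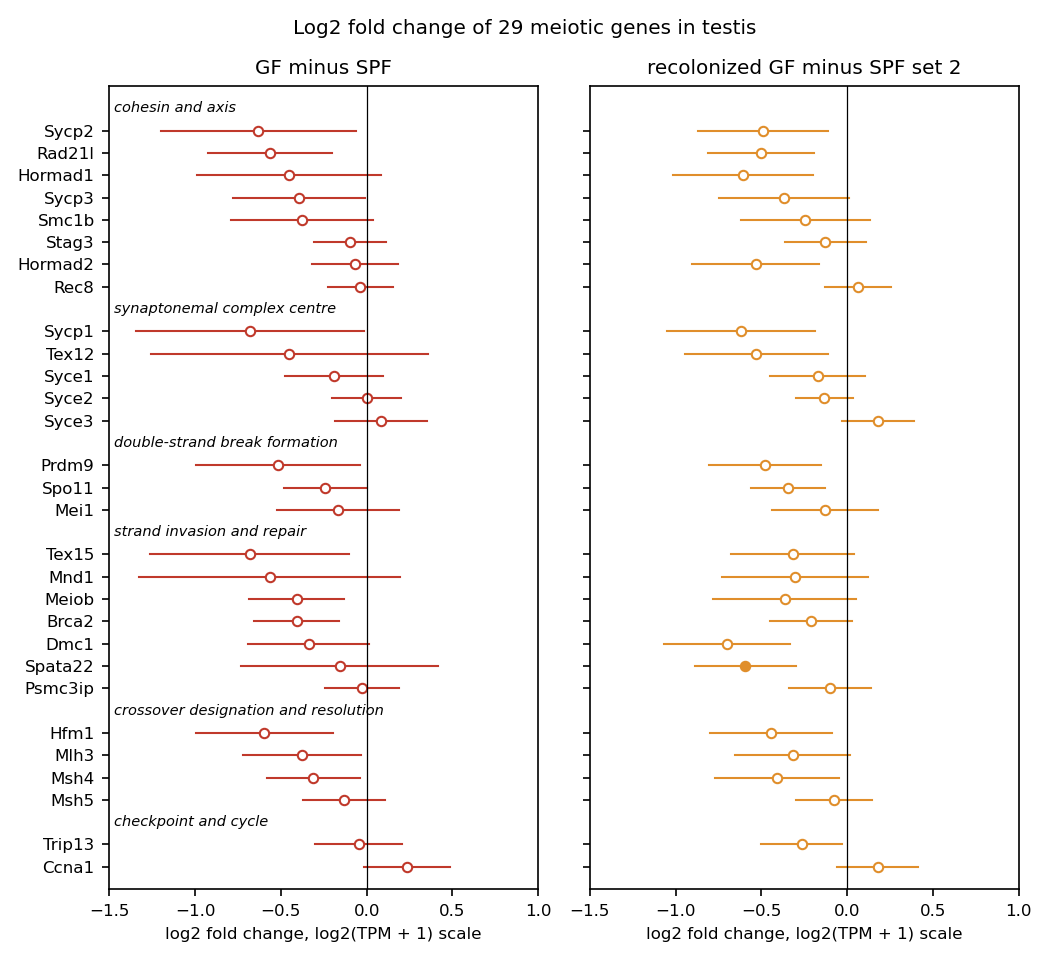
Log2 fold change of the 29 members, GF minus SPF on the left and recolonized GF minus SPF set 2 on the right, grouped by role, with 95% intervals from limma. The filled circle is the member called, Spata22, in recolonized GF, and open circles are members not called. Ccna1 and Syce3 lie right of 0 on both sides.

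Spata22, which pairs with MEIOB on single-stranded DNA, had 10.9, 8.83 and 7.74 TPM in recolonized GF and 12.5, 14.4, 16.8, 12.3 and 15.3 TPM in SPF set 2. All 3 recolonized values lay under the 5 controls (log2 fold change -0.59 ± 0.13, adjusted p = 0.0463, limma). The gene shares its locus with Aspa on the opposite strand and Gm49340 on the same strand. The call is close to the threshold. It was lost with a pseudocount of 0.1 (adjusted p = 0.0535), and 6 of the 8 fits that each left out a library lost it too, with an adjusted p of up to 0.163 without recolonized GF replicate 3. In GF, Spata22 had 11.8, 7.20, 13.2 and 6.50 TPM, against 13.0, 9.14 and 9.61 TPM in SPF, with the groups overlapping (log2 fold change -0.16 ± 0.25, adjusted p = 0.78).

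Dmc1, the meiosis-specific recombinase, had the lowest log2 fold change of the members in this comparison and missed the threshold. Its level was 8.98, 5.08 and 5.46 TPM in recolonized GF and 8.69, 11.2, 11.8, 11.6 and 11.3 TPM in SPF set 2 (log2 fold change -0.70 ± 0.16, adjusted p = 0.0501). Recolonized replicate 1 overlapped the lowest control, and the other 2 lay well below all controls. Without SPF set 2 replicate 1, the control that stood apart, it was called (adjusted p = 0.0378). It was also called without recolonized GF replicate 1, and leaving out any other library left it uncalled. Over the 8 fits that each left out a library, its adjusted p ran from 0.0113 to 0.181. Under the other settings its limma adjusted p ran from 8.0e-05 to 0.326. Dmc1 was called lower with array weights, a minimum mean of 5 TPM, a trended prior variance and all 4 testis groups in 1 fit. Under the rest it was not called. In GF it had 6.57, 5.87, 7.37 and 8.72 TPM, against 11.3, 8.45 and 8.12 TPM in SPF (log2 fold change -0.34 ± 0.15, adjusted p = 0.381).

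Rad21l and Spo11 did not overlap their controls either. Rad21l had 0.96, 0.63 and 0.67 TPM in recolonized GF and 1.41, 1.76, 1.08, 1.17 and 2.08 TPM in SPF set 2 (log2 fold change -0.50 ± 0.14, adjusted p = 0.0654). Spo11 had 30.2, 25.6 and 24.7 TPM in recolonized GF and 33.5, 37.8, 35.9, 31.4 and 32.8 TPM in SPF set 2 (log2 fold change -0.34 ± 0.10, adjusted p = 0.0678). Hormad1, which marks chromosome axes that have not yet synapsed, had 43.2, 29.4 and 24.2 TPM in recolonized GF and 43.1, 54.5, 53.5, 38.8 and 53.5 TPM in SPF set 2 (log2 fold change -0.61 ± 0.18, adjusted p = 0.0765). Here recolonized replicate 1 lay among the controls and the other 2 below them. In GF it had 29.6, 27.1, 43.2 and 21 TPM, against 50.2, 36.2 and 36.1 TPM in SPF, with only GF replicate 3 inside the SPF range (log2 fold change -0.45 ± 0.23, adjusted p = 0.411). Its relative Hormad2 had 9.85, 6.83 and 7.92 TPM in recolonized GF and 10.4, 15.3, 13.8, 13.1 and 9.31 TPM in SPF set 2 (log2 fold change -0.53 ± 0.16, adjusted p = 0.0795).

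Several abundant members stayed within 0.2 of 0 on the log2 scale, while Sycp3, the axis protein, with a mean of 117 ± 21.2 TPM in SPF set 2 (SD, n = 5), did not (log2 fold change -0.37 ± 0.17, adjusted p = 0.176). Syce2 had 289, 265 and 276 TPM in recolonized GF and 310.4, 293, 310.0, 303 and 299 TPM in SPF set 2, without overlap (log2 fold change -0.13 ± 0.07, adjusted p = 0.24). Stag3 had 201, 169 and 147 TPM in recolonized GF and 183, 191, 200.3, 175 and 186 TPM in SPF set 2 (log2 fold change -0.13 ± 0.11, adjusted p = 0.419). Its recolonized libraries spread wider than the controls, with the highest and the lowest value both among them. Rec8, Syce3 and Ccna1 had positive signs, none past the test. Rec8 had 106, 125 and 120.4 TPM in recolonized GF and 110.5, 119, 108, 115 and 106 TPM in SPF set 2 (log2 fold change 0.06 ± 0.09, adjusted p = 0.617). Syce3 had 235, 252 and 295 TPM in recolonized GF and 212, 229.7, 234, 228 and 242 TPM in SPF set 2 (log2 fold change 0.18 ± 0.09, adjusted p = 0.216). Ccna1 had 227, 247 and 225 TPM in recolonized GF and 231, 224, 213, 177 and 189 TPM in SPF set 2, and all 3 genes overlapped their controls (log2 fold change 0.18 ± 0.11, adjusted p = 0.267).

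The members of lowest p in GF overlapped their controls in recolonized GF, apart from Rad21l. Brca2 had 6.29, 5.58 and 5.33 TPM in recolonized GF and 6.38, 6.86, 8.05, 5.74 and 7.05 TPM in SPF set 2 (log2 fold change -0.21 ± 0.11, adjusted p = 0.204). Hfm1 had 9.09, 6.94 and 5.40 TPM in recolonized GF and 9.51, 9.56, 11.5, 7.90 and 11.4 TPM in SPF set 2 (log2 fold change -0.45 ± 0.16, adjusted p = 0.106). In both genes 1 recolonized library or more reached the lowest control. Meiob had 7.86, 6.36 and 6.39 TPM in recolonized GF and 7.30, 12.0, 12.4, 7.76 and 7.24 TPM in SPF set 2, where replicates 2 and 3 stood above the other controls (log2 fold change -0.36 ± 0.19, adjusted p = 0.21). Tex15 had 10.2, 7.91 and 6.32 TPM in recolonized GF and 8.75, 11.7, 11.8, 8.31 and 11.1 TPM in SPF set 2 (log2 fold change -0.32 ± 0.16, adjusted p = 0.205). Recolonized replicate 1 lay inside the control range for both. Prdm9 had 3.20, 2.10 and 1.66 TPM in recolonized GF and 3.03, 3.14, 3.65, 3.89 and 4.08 TPM in SPF set 2 (log2 fold change -0.48 ± 0.15, adjusted p = 0.0783). Sycp1 had 33.7, 25.04 and 18.8 TPM in recolonized GF and 33.3, 45.5, 47.3, 31.0 and 41.5 TPM in SPF set 2 (log2 fold change -0.62 ± 0.19, adjusted p = 0.0823). For both, recolonized replicate 1 reached the controls and the other 2 lay below them. Mei1 had 5.95, 6.67 and 4.56 TPM in recolonized GF and 4.93, 6.32, 6.29, 7.73 and 6.43 TPM in SPF set 2 (log2 fold change -0.13 ± 0.14, adjusted p = 0.535). Psmc3ip had 173, 142 and 137 TPM in recolonized GF and 149, 149, 166, 159.8 and 182 TPM in SPF set 2 (log2 fold change -0.10 ± 0.11, adjusted p = 0.527). Msh5 had 11.5, 12.8 and 12.6 TPM in recolonized GF and 10.8, 13.0, 13.6, 14.3 and 13.7 TPM in SPF set 2 (log2 fold change -0.08 ± 0.10, adjusted p = 0.607). These 3 overlapped their controls and had a log2 fold change within 0.2 of 0.

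By role, the medians in recolonized GF were -0.43 for the 8 axis and cohesin genes, of which 7 were below 0, and -0.17 for the 5 genes of the synaptonemal complex centre. They were -0.34 for the 3 break formation genes, -0.32 for the 7 of strand invasion and repair and -0.36 for the 4 crossover genes, all of them below 0. The checkpoint and cycle pair had Trip13 at 5.47, 4.35 and 4.74 TPM in recolonized GF and 6.02, 5.33, 6.50, 5.42 and 6.94 TPM in SPF set 2 (log2 fold change -0.27 ± 0.11, adjusted p = 0.13) and Ccna1 on the other side of 0.

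**Figure D3:**
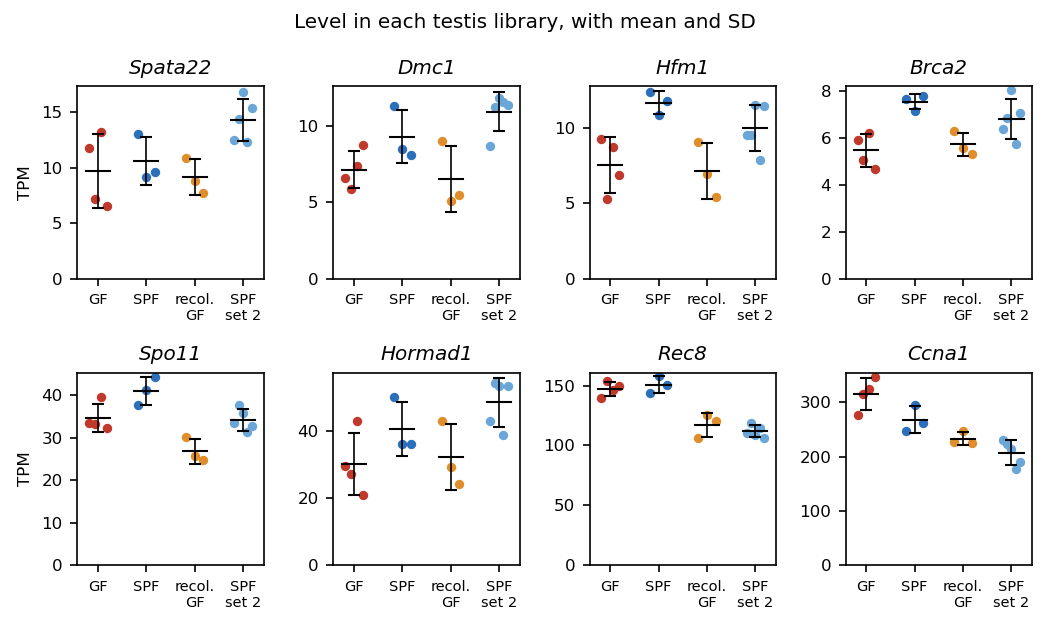
TPM of 8 members in each testis library (points), with the mean and SD of each group (black), GF left of SPF and recolonized GF left of SPF set 2. Spata22 in recolonized GF lies below all SPF set 2 values, Brca2 and Hfm1 in GF lie below all SPF values, and Rec8 overlaps its controls in both comparisons.

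Whether the members' change differed between the comparisons was tested as a difference of differences, recolonized GF minus SPF set 2, less GF minus SPF, in 1 fit of all 15 testes. No member was called, where 0.014% of 14314 genes were, and 1 member had an unadjusted p under 0.05, against 4.53% of all genes lower and 1.1% higher at that level. That member was Hormad2 (log2 fold change -0.47 ± 0.21, adjusted p = 0.881). In GF it stood at 13.2, 11.3, 12.5 and 12.3 TPM against 12.8, 14.8 and 11.3 TPM in SPF, with overlap. For Spata22 the difference was -0.43 with a 95% interval of -1.05 to 0.18, for Dmc1 -0.36 with an interval of -0.88 to 0.15, for Trip13 -0.22 with -0.54 to 0.10, and for Syce2 -0.13 with -0.34 to 0.08. The median over the 29 was 0.04, with 12 below 0, against -0.04 and 59% of all genes. The intervals leave room for differences of the size of the changes themselves, so a member called in recolonized GF and not in GF is not shown to behave differently in them.

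The size of a member's change went with the base composition of its transcript. Transcript GC content ran from 34.6% in Sycp1 to 56.7% in Rec8, with a median of 44.3% over the 29 members. Across these genes, which share libraries and are not independent, Spearman's rho between GC content and log2 fold change was 0.78 in GF and 0.75 in recolonized GF (n = 29 genes). Over all tested genes it was 0.26 (13991 genes) and 0.36 (14056 genes). With transcript length the members' rho was -0.34 in GF and 0.01 in recolonized GF. For the difference between the comparisons, the rho with GC content was -0.13.

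The composition of the extremes can be read from their coding sequence. Printed are the middle 120 bases of the coding sequence of the 2 members of lowest and the 2 of highest transcript GC content (GENCODE M21 transcripts, GRCm38, the build with the coordinates of mm10), with G and C in capitals. Coordinates span the introns between the first and the last base.
Sycp1 (chr3:102895944-102898944, - strand): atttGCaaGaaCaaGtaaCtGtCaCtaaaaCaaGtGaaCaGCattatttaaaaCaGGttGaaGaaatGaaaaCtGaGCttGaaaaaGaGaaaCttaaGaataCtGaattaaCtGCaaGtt
Tex12 (chr9:50557475-50558437, - strand): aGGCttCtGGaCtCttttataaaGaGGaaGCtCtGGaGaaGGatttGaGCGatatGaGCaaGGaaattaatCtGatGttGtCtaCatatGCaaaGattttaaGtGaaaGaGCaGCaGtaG
Mei1 (chr15:82098005-82100973, + strand): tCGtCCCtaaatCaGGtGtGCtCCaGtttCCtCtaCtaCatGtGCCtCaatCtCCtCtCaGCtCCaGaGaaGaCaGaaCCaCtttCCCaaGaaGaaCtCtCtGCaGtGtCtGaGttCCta
Rec8 (chr14:55622705-55623178, + strand): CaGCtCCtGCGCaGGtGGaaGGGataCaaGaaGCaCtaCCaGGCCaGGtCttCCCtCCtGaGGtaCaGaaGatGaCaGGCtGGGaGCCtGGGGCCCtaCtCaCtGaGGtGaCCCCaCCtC
G and C make up 30.0% of the stretch of Sycp1, 38.3% of that of Tex12, 48.3% of that of Mei1 and 60.8% of that of Rec8. Over the whole coding sequence the shares are 34.5% in Sycp1, 40.1% in Tex12, 55.5% in Mei1 and 56.9% in Rec8.

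Split at 42% and 48% GC, bounds chosen after the data were seen, the 11 members under 42% had a median log2 fold change of -0.45 in GF and -0.49 in recolonized GF. All 1211 genes of that class tested in GF had a median of -0.26, and all 1246 tested in recolonized GF one of -0.28. The 9 members between 42% and 48% had a median of -0.34 in GF, against -0.16 over all genes of the class, and -0.34 in recolonized GF, against -0.24. The 9 members of 48% or more had a median of -0.04 in GF, against -0.07, and -0.10 in recolonized GF, against -0.11, and none of them reached an unadjusted p under 0.05 in either comparison. In the lowest class 10 of the 11 members lay under the median of their class in both comparisons. When each library was corrected for GC content and length over all tested genes, an alternative added after the data were seen, the members' median was -0.13 in GF with 20 below 0, and -0.13 in recolonized GF with 19 below 0, and no member was called. Spata22 then had a log2 fold change of -0.39 (limma adjusted p = 0.0387), under the 1.5-fold bound.

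**Figure D4:**
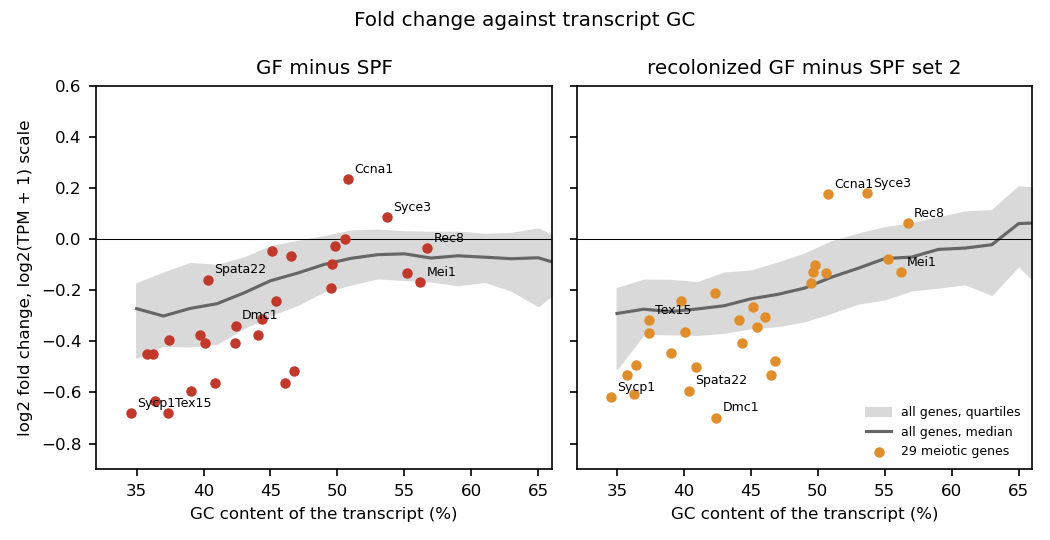
Log2 fold change of the 29 members (points) against the GC content of the transcript in percent, with the median and quartiles of all tested genes in bins of 2 percentage points (line and grey band), GF minus SPF on the left and recolonized GF minus SPF set 2 on the right. Members of low GC, such as Sycp1, lie low, those of high GC, such as Rec8, near 0, and most members under 48% GC lie under the line.

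The libraries of a group did not share this pattern evenly. Of the 20 members under 48% GC, 18, 19, 16 and 19 lay below the SPF mean in GF replicates 1 to 4, and 17, 20 and 20 lay below the SPF set 2 mean in recolonized GF replicates 1 to 3. Of the 9 members of higher GC, 8, 6, 4 and 5 did so in GF and 4, 5 and 6 in recolonized GF. Among the controls themselves, SPF had 4, 15 and 13 of the 20, and SPF set 2 had 20, 4, 1, 16 and 4. The mean log2(TPM + 1) of the 29 members was 4.49, 4.37, 4.63 and 4.25 in the GF testes and 4.83, 4.65 and 4.71 in the SPF testes. It was 4.68, 4.40 and 4.30 in recolonized GF and 4.64, 4.85, 4.89, 4.65 and 4.81 in SPF set 2. GF replicate 3 and recolonized GF replicate 1 thus stood within or close to the control range, and the other 3 GF and the other 2 recolonized GF libraries below it. The same libraries lay below their controls in the median over all genes under 42% GC. The median deviation of such genes from their mean over the 15 testes was -0.08, -0.28, 0.04 and -0.41 in the GF replicates, against 0.17, -0.02 and 0.09 in SPF. It was 0.18, -0.17 and -0.31 in recolonized GF, against 0.10, 0.24, 0.33, -0.02 and 0.21 in SPF set 2. The part of base composition, of RNA quality and of library preparation in the members' levels was not tested.

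Other genes of meiosis, a list of 85 genes that holds partners of the members, had 63 in the expression table. Most of those tested were below 0 as well. In GF 54 of 62 tested were below 0, with a median of -0.25, and none was called. In recolonized GF 53 of 61 were below 0, with a median of -0.26, and 1 was called lower. That gene was Stra8, the retinoic acid response gene that drives entry into meiosis, with 11.2, 10.6 and 8.49 TPM in recolonized GF and 13.5, 15.03, 18.5, 20.1 and 16.9 TPM in SPF set 2 (log2 fold change -0.67, limma adjusted p = 0.0383). In GF it had 8.57, 13.1, 12.5 and 8.72 TPM, against 21.7, 16.7 and 18.8 TPM in SPF, also without overlap, and it was not called (log2 fold change -0.79, adjusted p = 0.316).

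Several lists of markers of other testis cells had medians below 0 beside the members. Of 9 markers of Leydig cells, which make testosterone, 6 were called lower in recolonized GF, among them Hsd3b1, Hsd17b3, Hsd3b6 and Fabp3, with a median of -0.76, and none in GF, with a median of -0.02. In the difference between the comparisons all 9 were below 0, with a median of -0.61, and none was called. Their summed level was 2464 to 3664 TPM in recolonized GF and 4154 to 5596 in SPF set 2, and 3903 to 5849 in GF and 4203 to 4906 in SPF. Spermatogonia, the cells before meiosis, had a median of -0.43 in recolonized GF with Kit and Stra8 called lower among 15 tested, and -0.23 in GF with none called. Markers of Sertoli cells had a median of -0.32 in recolonized GF, with Wt1 called lower, and -0.17 in GF. Those of peritubular and vascular cells had -0.28 in recolonized GF, with Dcn called lower, and -0.21 in GF, and those of macrophages -0.56 in recolonized GF and -0.14 in GF, with none called. Markers of pachytene spermatocytes, the stage at which synapsis is complete, had -0.04 in recolonized GF and -0.02 in GF, and those of spermatids and sperm -0.02 in recolonized GF and 0.06 in GF. Single pachytene markers ran from -0.50 to 0.23 in recolonized GF and from -0.42 to 0.60 in GF. The summed level of the spermatid and sperm markers, given above, was higher in GF than in SPF without overlap. In recolonized GF and SPF set 2 the sums overlapped. Over all genes, 183 were called in recolonized GF and between 17 and 789 when 1 library was left out. How the single marker calls fared in those fits is not given here. Of these lists, spermatogonia share Stra8 and pachytene spermatocytes share Hspa2 and Mybl1 with the list of other meiosis genes. The part of cell composition in the members' levels was not tested.

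Most members were at or near 0 in the epididymis. Of the 30 members in the table, 1, Mei4, had a mean under 1 TPM in SPF testis, against 24 in SPF caput and 23 in SPF cauda. Most members pass the filter only through testis, so a count of calls between tissues would be fixed by the filter and is not read as a result. Among the members tested in SPF set 2, the smallest differences from testis were those of Mlh3 in caput, at 8.01 ± 0.90 TPM in testis and 5.24 ± 0.517 TPM in caput (SD, n = 5 each), and Mnd1 in cauda, at 4.71 ± 1.15 TPM in testis and 3.62 ± 0.719 TPM in cauda. In SPF mice of the first set Rec8 had the highest epididymal level, at 151 ± 7.25 TPM in SPF testis, 33.6 ± 6.82 TPM in caput and 24.3 ± 5.75 TPM in cauda (SD, n = 3, 4 and 4). Syce2 followed, at 14.8 ± 2.79 TPM in caput and 19.1 ± 9.01 TPM in cauda, and in SPF set 2 cauda it stood above Rec8, at 29.1 ± 8.33 TPM against 19.6 ± 1.75 TPM for Rec8. Psmc3ip had 4.29 ± 0.893 TPM in caput and 5.25 ± 1.05 TPM in cauda, and Mlh3 had 4.80 ± 0.499 TPM in caput and 3.46 ± 0.706 TPM in cauda. Rad21l was listed at 0 in all 47 epididymal libraries. Syce2, Psmc3ip, Sycp3, Tex12, Stag3 and Ccna1 overlap a gene on the opposite strand (Gcdh for Syce2, Mlx for Psmc3ip), and whether strand was used in counting is not given in the sources used here.

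In the epididymis 5 to 9 members passed the filter in each of 8 contrasts with SPF, which were added after the data were seen, and none was called. The contrasts set GF, Rag2 KO and F1 mice against SPF, and recolonized GF against SPF set 2. GF cauda replicate 4, from a swollen cauda, was left out of the fits. Of all genes, 0.144% were called in GF cauda, 0.13% in Rag2 KO cauda, 0.188% in F1 cauda and 0.323% in recolonized GF cauda. In caput the shares were 0.348% in GF, 0.159% in Rag2 KO, 2.72% in F1 and 0.175% in recolonized GF.

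Syce2 had the highest log2 fold change of the members in 3 of the 4 cauda contrasts, and Hormad2 in F1 cauda (0.93 ± 0.27, adjusted p = 0.115). Mnd1 was below 0 in all 4. Its log2 fold change was -0.59 ± 0.22 in GF (limma adjusted p = 0.247) and -1.02 ± 0.37 in Rag2 KO (adjusted p = 0.393). It was -0.53 ± 0.33 in F1 (adjusted p = 0.369) and -0.72 ± 0.14 in recolonized GF (adjusted p = 0.0812). Mnd1 had 1.63, 2.10 and 1.61 TPM in recolonized GF cauda and 2.76, 3.44, 3.44, 3.70 and 4.74 TPM in SPF set 2 cauda, without overlap. Syce2 had 46.4, 40.5, 41.7, 52.4 and 37.2 TPM in GF cauda, 31.4 TPM in the library left out, 46.6, 71.8 and 60.7 TPM in Rag2 KO cauda and 32.7, 26.4 and 28.2 TPM in F1 cauda, against 16.7, 31.8, 17.5 and 10.4 TPM in SPF cauda. F1 cauda overlapped SPF cauda, and GF cauda without the library left out and Rag2 KO cauda did not. The log2 fold change was 1.25 ± 0.26 in GF (adjusted p = 0.114), 1.68 ± 0.34 in Rag2 KO (adjusted p = 0.163) and 0.68 ± 0.33 in F1 (adjusted p = 0.252), all against the same SPF libraries. Recolonized GF cauda had 71.2, 59.8 and 42.2 TPM and SPF set 2 cauda 30.2, 37.6, 20.8, 36.6 and 20.2 TPM, without overlap (log2 fold change 0.98 ± 0.25, adjusted p = 0.115). In caput the values of Syce2 lay between -0.08 and 0.19. The summed level of the 20 spermatid and sperm genes was 2131 to 2823 TPM in GF cauda, 2680.0 to 4810.0 TPM in Rag2 KO cauda and 1383 to 2241 TPM in F1 cauda, against 54.3 to 1915 TPM in SPF cauda. It was 2394 to 4877 TPM in recolonized GF cauda and 1043 to 2954 TPM in SPF set 2 cauda. The part of sperm transcripts in the level of Syce2 was not tested.

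**Figure D5:**
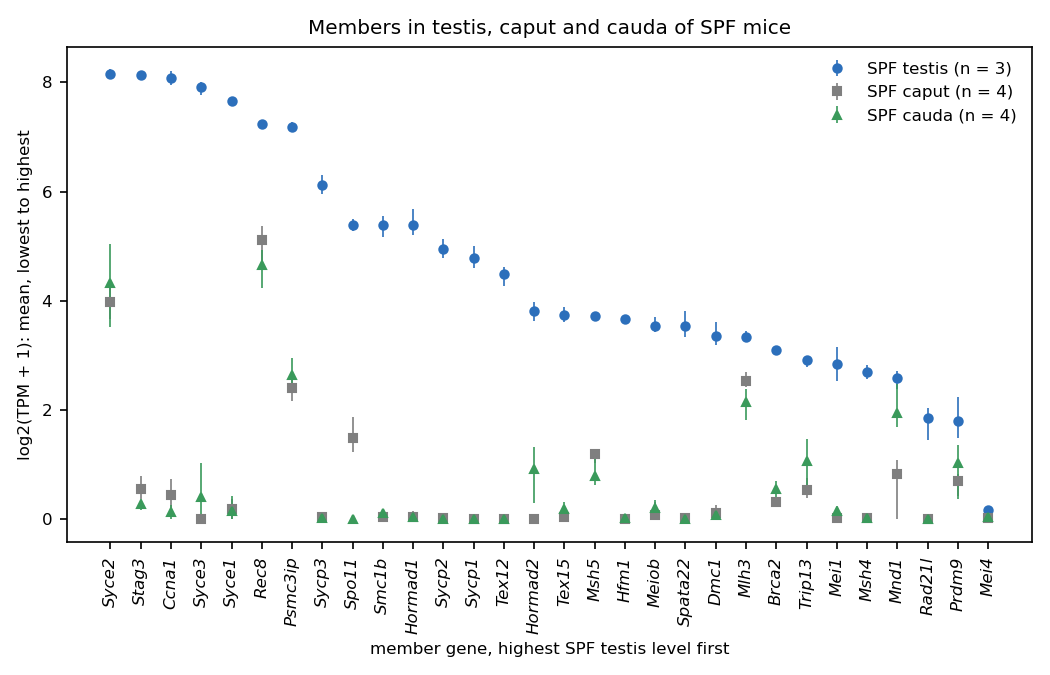
Log2 of the mean TPM plus 1 for the 30 members in the table in testis (n = 3), caput (n = 4) and cauda (n = 4) of SPF mice, with bars from the lowest to the highest library, ordered by the testis level. Testis lies above both epididymal regions for all members, by the least for Mei4, Prdm9, Mnd1 and Mlh3, and Rec8 and Syce2 have the highest epididymal points.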

How the data were processed

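Polyadenylated RNA of testis, caput and cauda was sequenced by the authors as 50 bp paired-end reads, from stranded libraries made of 1 µg of RNA. Per the submitters' processing notes and the methods, mm10 was the genome and RSEM the counter, whose version is not given in the sources used here. The deposited values are TPM per gene and library. TPM keep no depth, so depth is unknown and no counting interval is given. The authors' own tests used raw counts and are not used here. Groups came from GEO's labels, and each library is 1 animal.

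Since a count test does not apply to TPM, limma (version 3.58.1, under R 4.3.3) was run on log2(TPM + 1). A gene was tested where its mean over the compared libraries reached 1 TPM. Two-sided p-values were adjusted by Benjamini-Hochberg over all genes tested. Fold changes are on the log2(TPM + 1) scale, which understates the change of low genes. Each comparison was fitted on its own groups, and the difference between comparisons on all 4 testis groups. The tests were first tried on simulated data.

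Every library's value is given for members called in testis, the 5 of lowest p in each testis comparison, the 3 of highest and of lowest SPF level, and the 1 or 2 of highest level in each role. Sycp1 was added to these after its values were seen. From other lists, up to 4 called genes are named by size of change. Alternatives covered the pseudocount, the filter, scaling, variance prior, array weights, a replicate block, and leaving out each library. The members and gene lists were chosen with earlier results of these data known. Transcript GC content and length came from GENCODE M21, and promoters and loci from RefSeq GRCm38.p6.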

Additional observations from a re-analysis of the deposited data

Results flagged for a closer look

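A single library stood apart from the rest of its group, by Dixon's test at the 95% level, for 4 of 62 tests, which took the 30 members and their mean score in the GF and the SPF set 2 testes. Chance alone gives about 1 in 20. Spo11 was at 39.7 TPM in GF replicate 3, with the other GF testes between 32.2 and 33.4. Msh5 was at 13.2 TPM in GF replicate 4, with the others between 10.4 and 10.7. Syce1 was at 252.9 TPM in SPF set 2 replicate 4, with the others between 291 and 304. Dmc1 was at 8.69 TPM in SPF set 2 replicate 1, with the others between 11.2 and 11.8.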

How the results depend on the processing

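The number of members called in GF was 0 under every alternative run, and the member median stayed below 0, at -0.18 with quantile normalization and -0.13 with GC and length correction. In recolonized GF no member was called with a pseudocount of 0.1 or 0.5, without a filter, with median centring, quantile normalization, GC and length correction or the replicate block. With a minimum mean of 5 TPM, or a trended prior variance, 2 members were called, and with array weights 8. With all 4 groups in 1 fit the member called was Dmc1, and Spata22 was not (adjusted p = 0.0795). Leaving out 1 library gave 0 to 10, with 10 without recolonized GF replicate 1, 2 without SPF set 2 replicate 1 and 0 without any other. The member median in recolonized GF was -0.12 with median centring, -0.14 with quantile normalization and -0.13 with GC and length correction. The median difference between the comparisons was -0.11 with array weights and ran from -0.14 to 0.086 when 1 library was left out. At a minimum mean of 5 TPM, all 19 members tested were called higher in SPF testis than in caput. All 19 tested against cauda were called higher as well. Over all genes at that filter, 5615 of 10577 were called higher than in caput and 5645 of 10736 than in cauda. Most members entered these tests only through testis, so the filter fixed their counts and nothing is read from them. Over all genes, 6 were called in GF and 0 to 26 under the alternatives, and 183 in recolonized GF and 1 to 871 under them. Same-numbered libraries did not deviate together in every pair, which cannot show whether tissues of the same number came from 1 animal. The labels do not say, and libraries were taken as independent. With the replicate block Spata22 had an adjusted p of 0.326, and the member medians were -0.25 in GF and -0.37 in recolonized GF. The cause of each shift was not tested. Depth is unknown, and members near 1 TPM, such as Rad21l and Prdm9, are limited by it most.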
